A study of Homo sapiens with 9 samples.

Results

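The genes described here are 9 sensors of foreign or misplaced RNA and DNA and the adaptors and kinases that act with them: DDX58, IFIH1, DHX58, TLR3, EIF2AK2, CGAS, MAVS, TBK1 and ADAR. They were chosen by gene symbol, without use of their values, and all 9 were found among the 22295 entries of the expression table, of which 19932 are gene symbols. The study asked how the transcriptome of glioblastoma cells responds when the splicing regulator PTBP1 is knocked down to drive neural differentiation. U251, an established human glioblastoma cell line, was infected with lentivirus carrying an sh-RNA and an M-cherry marker, and 3 RNA-seq libraries were made for each of 3 groups. The group sh-Luci-3d received a control sh-RNA directed to luciferase and was harvested at 3 dpi (days post infection), and the groups sh-Ptbp1-3d and sh-Ptbp1-7d received the sh-RNA against PTBP1 and were harvested at 3 dpi and 7 dpi. All 3 groups therefore carry a lentiviral vector, and no uninfected cells were analysed here. The knockdown rests on 1 sh-RNA sequence. Neuronal induction medium with forskolin and dorsomorphin replaced the growth medium before the 3 dpi harvest, so the 7 dpi cells had spent longer in it. A control infected with sh-Luci for 7 days was not analysed here, and in every comparison with sh-Ptbp1-7d the knockdown, the days after infection and the time in induction medium cannot be told apart.

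Cells recognise viral or displaced self nucleic acid with proteins that bind double-stranded RNA in the cytosol, RNA in endosomes, or DNA in the cytosol. The cytosolic RNA helicases signal through MAVS on mitochondria, TLR3 signals through its adaptor TICAM1, and CGAS signals through STING1. These routes meet at the kinase TBK1 and the transcription factor IRF3, which switch on interferon beta, and interferon in turn raises the transcription of many of the sensors themselves. ADAR edits adenosines in double-stranded RNA and so keeps self RNA from being recognised, while EIF2AK2 (PKR) stops translation when it binds such RNA. Astrocytes and glioma cells are known to use these pathways.

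Levels are given as FPKM, that is, sequenced fragments normalised to transcript length in kilobases and to the library's mapped fragments, as the authors deposited them, and values of a group follow the order of replicates 1 to 3. Library sums lay between 367412 and 404922 FPKM, and 11700 to 12136 genes stood at 1 FPKM or more. The sh-Ptbp1-7d sums, 367412 to 379050 FPKM, lay below every 3 dpi sum, the lowest being 386628 FPKM. Their genes at 1 FPKM or more, 11963 to 12136, lay above the highest 3 dpi count of 11833. Mitochondrial genes held 6.1% to 8.53% of the FPKM at 7 dpi and 8.68% to 13.3% at 3 dpi. The part of these differences in the results was not tested. Whole-read steps were not found in the values, which leaves the depth of sequencing unknown and allows no counting error. The targeted gene PTBP1 (chromosome 19, 797075 to 812327, GRCh38) was at 110.7, 111.9 and 124.4 FPKM (sh-Luci-3d), at 66.2, 64.4 and 61.0 FPKM (sh-Ptbp1-3d) and at 49.8, 50.7 and 51.0 FPKM (sh-Ptbp1-7d). It was lower in both sh-Ptbp1 groups than in sh-Luci-3d, with no overlap (log2 fold change -0.85 at 3 dpi, limma adjusted p = 0.00314, which became 0.0579 without sh-Ptbp1-3d replicate 3, 0.0583 with the replicate number as a block and 0.0821 with both 3 dpi groups fitted alone, at log2 fold changes of -0.82 to -0.85). Differences were tested with limma on log2(FPKM + 0.1) on 15551 genes whose mean reached 0.1 FPKM, a scale on which changes of weakly expressed genes appear too small. Adjusted p-values are limma's, with Benjamini-Hochberg adjustment over all genes tested. A gene was called when its fold change exceeded 2 and its FDR was under 0.05 (both groups of 3 dpi) or under 0.01 (comparisons with sh-Ptbp1-7d). The labels do not say whether the 3 libraries of a group came from separate cultures, so the p-values measure the spread between these libraries, which may be technical.

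The libraries carried part of the listed glioma and astroglial markers, and few of blood, immune or endothelial cells. These markers do not identify the cell line. Of 10 glioma and astroglial markers, 6 had a mean of at least 1 FPKM in every group, led by VIM at a mean of 4168 FPKM (sh-Luci-3d), while GFAP, S100B and AQP4 had means below 1 FPKM in every group and CHI3L1 was listed at 0 throughout. Their sum over libraries ranged from 4400 to 4520 FPKM in the control group, from 4480 to 4790 FPKM (sh-Ptbp1-3d), and from 1330 to 1440 FPKM at 7 dpi. VIM carried most of that sum, with means of 4381 FPKM at 3 dpi and 1169 FPKM at 7 dpi of knockdown, and not all markers went the same way. Over the groups in the same order TNC had means of 25.1, 25.0 and 77.6 FPKM, and SOX9 of 38.3, 40.6 and 33.3 FPKM. Of 12 blood and immune markers, 11 had a mean below 1 FPKM in every group, and AIF1, C1QA, CD3E, MS4A1, CLEC4C and LILRA4 were listed at 0 in all 9 libraries. Their summed level was 10.2 to 11.4 FPKM (sh-Luci-3d), 10.8 to 11.4 FPKM (sh-Ptbp1-3d), and 16.2 to 19.1 FPKM at 7 dpi, of which the lysosomal protein CD68 had means of 10.1, 10.5 and 16.3 FPKM. The 3 endothelial markers summed to less than 1 FPKM in every library, with a highest sum of 0.665 FPKM, and the 5 neuron markers to 265 to 316 FPKM, 335 to 354 FPKM and 158 to 165 FPKM in the groups in the same order. TUBB3 carried most of the neuron sum, with means of 261.3, 316.9 and 118.2 FPKM, while MAP2 had means of 22.4, 20.3 and 38.9 FPKM and SNAP25 of 1.27, 2.68 and 4.32 FPKM. STMN2 was at 11.5 FPKM in 1 library of sh-Ptbp1-3d and was listed at 0 in all others, so the libraries of that group were not uniform. RBFOX3 had means below 1 FPKM in every group. The marker sums thus differed at 7 dpi, where the sensors described here did too. The part of these sums in those results was not tested.

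The start regions of the sensors are shown because 3 of them hold the core of the interferon-stimulated response element (ISRE), the sequence through which interferon acts on many of its target genes. Of the 9 genes, 7 matched RefSeq windows of 300 bases on GRCh38.p14, from 250 bases before to 50 bases after the transcription start, with DDX58 listed under its newer symbol RIGI and ADAR having 3 windows. The ISRE core was searched as GAAANNGAAA, which reads TTTCNNTTTC on the other strand, and was found in the windows of IFIH1, TLR3 and EIF2AK2. Of all 35116 windows of this length, 3.57% hold it. The sequences below run from 170 bases before to 10 bases after the start, 5′ to 3′ on the strand of the gene, with the ISRE core in capitals. They lie at chr2:162318675-162318854 (minus strand) for IFIH1, chr4:186068986-186069165 (plus strand) for TLR3 and chr2:37156971-37157150 (minus strand) for EIF2AK2.
IFIH1: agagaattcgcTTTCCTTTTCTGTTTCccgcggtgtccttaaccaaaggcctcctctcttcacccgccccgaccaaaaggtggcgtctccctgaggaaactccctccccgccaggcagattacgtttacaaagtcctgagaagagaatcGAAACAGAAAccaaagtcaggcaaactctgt
TLR3: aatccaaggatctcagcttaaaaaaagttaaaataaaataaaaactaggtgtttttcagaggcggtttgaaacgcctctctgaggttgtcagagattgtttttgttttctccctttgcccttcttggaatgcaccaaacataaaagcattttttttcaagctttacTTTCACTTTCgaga
EIF2AK2: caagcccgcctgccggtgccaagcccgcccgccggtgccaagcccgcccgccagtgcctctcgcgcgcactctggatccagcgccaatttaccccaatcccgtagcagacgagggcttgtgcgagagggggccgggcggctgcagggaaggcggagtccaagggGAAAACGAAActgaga
IFIH1 held matches starting at -159, -153 and -21 from the start, and the first pair overlap and share the letters TTTC. The match of TLR3 began at -4 and that of EIF2AK2 at -6. The core of the gamma-activated sequence, TTCNNNGAA on both strands, was found in the TLR3 window alone, at -178 and -50, and 7.66% of all windows hold it. A match is a description of the letters, and a window without these letters says nothing about which factors act on that gene.

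Between 3 dpi and 7 dpi of PTBP1 knockdown the RNA sensors rose and the adaptor MAVS fell. The cytosolic helicases DDX58, IFIH1 and DHX58 and the endosomal receptor TLR3 were 2.81-fold to 6.65-fold higher at 7 dpi than at 3 dpi of knockdown, by the ratio of group means. ADAR was 1.65-fold higher, and MAVS stood at 0.524 of its sh-Ptbp1-3d level. EIF2AK2 and TBK1 did not pass the test, and CGAS was too low to be tested. Of the 8 genes tested, 4 passed both thresholds, all of them higher, against 14.2% of all genes, 8.31% being higher and 5.9% lower. With the FDR alone 6 passed, 5 higher and MAVS lower, against 35.8% of all genes, 20.3% being higher and 15.5% lower, and no library of sh-Ptbp1-7d overlapped with one of sh-Ptbp1-3d for any of the 8, against 62.3% of all genes. The median log2 fold change of the 8 genes was 1.085, and that of all genes was 0.09. In these bulk samples, fewer cells that carry a transcript and less of it per cell cannot be told apart.

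**Figure D1:**
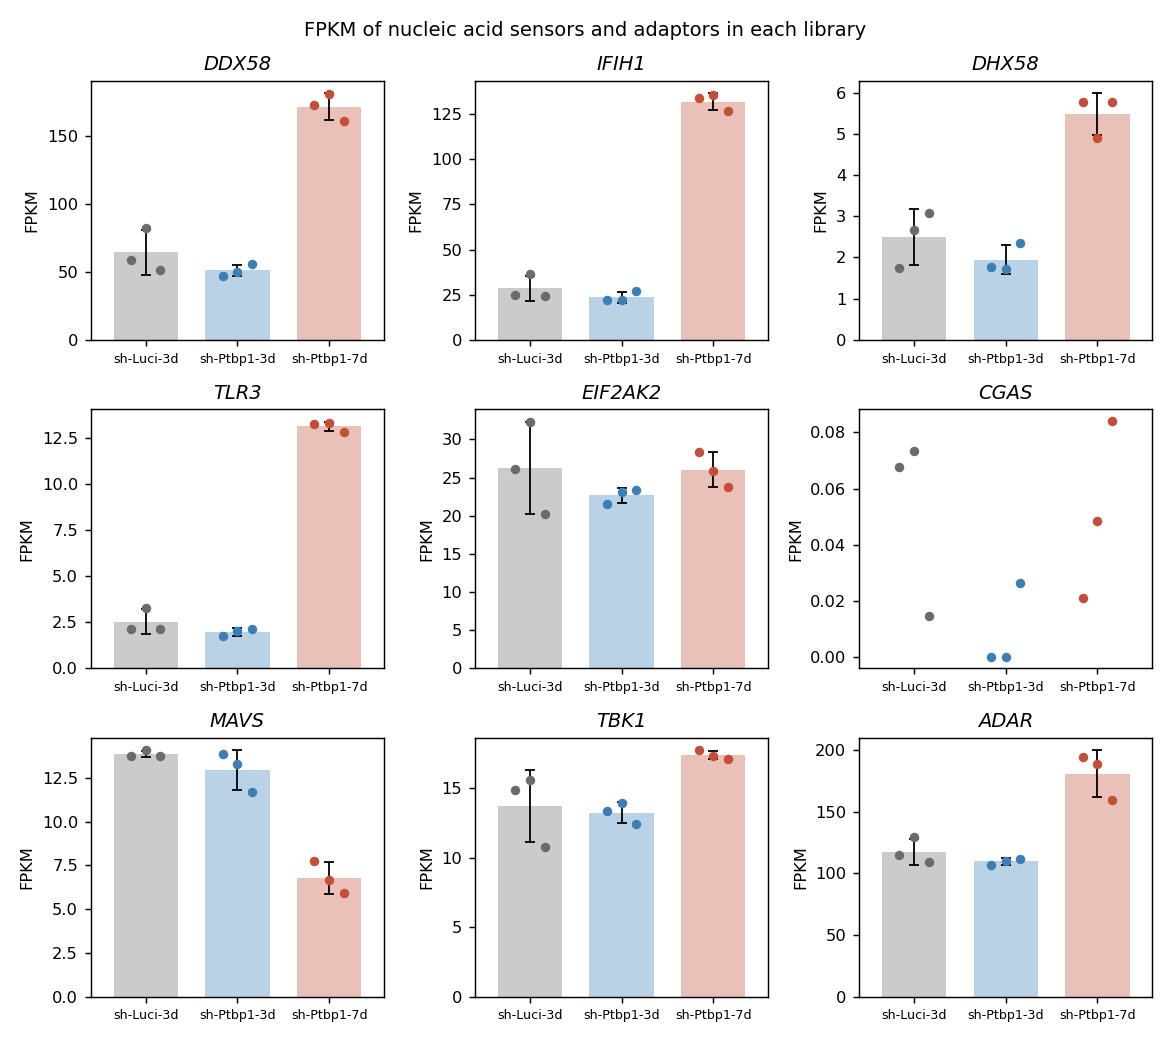
FPKM (vertical axes, each starting at or just below 0) of the 9 genes in the 3 groups. Points are the 3 libraries of a group, bars are group means and whiskers are 1 SD, with points alone for CGAS, whose values were at or near 0. DDX58, IFIH1, DHX58 and TLR3 stand clearly higher in sh-Ptbp1-7d and MAVS lower, while EIF2AK2 libraries lie between 20.2 and 32.3 FPKM in all groups.

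DDX58 (chromosome 9, 32455705 to 32526324, minus strand) encodes RIG-I, the helicase that binds short double-stranded RNA with a triphosphate end. It was at 58.7, 82.6 and 51.6 FPKM (sh-Luci-3d), 47.3, 50.2 and 55.8 FPKM (sh-Ptbp1-3d) and 172.7, 180.5 and 160.7 FPKM (sh-Ptbp1-7d). The 7 dpi libraries all stood far above the 3 dpi libraries, and the 3 dpi groups overlapped. Its log2 fold change between 3 dpi and 7 dpi of knockdown was 1.745 (standard error 0.148, limma adjusted p = 4.43e-06), a 3.35-fold difference of means. Leaving out single libraries and changing the scaling, filter or pseudocount gave log2 fold changes of 1.66 to 1.855.

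IFIH1 (chromosome 2, 162267079 to 162318703, minus strand) encodes MDA5, the helicase that assembles along long double-stranded RNA. It was at 24.9, 36.6 and 24.4 FPKM (sh-Luci-3d), 22.0, 21.8 and 27.1 FPKM (sh-Ptbp1-3d) and 133.7, 135.3 and 126.8 FPKM (sh-Ptbp1-7d). The 7 dpi libraries lay close together and above every 3 dpi library. From 3 dpi to 7 dpi of knockdown it rose by 2.48 on the log2 scale (standard error 0.148, limma adjusted p = 3.49e-07), a 5.58-fold difference of means. The start region of this gene is the printed sequence with 3 ISRE core matches.

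DHX58 (chromosome 17, 42101404 to 42112733, minus strand) encodes LGP2, a helicase without the signalling domains of the other two that tunes their activity. It was the lowest of the cytosolic RNA sensors, at 1.74, 2.66 and 3.07 FPKM (sh-Luci-3d), 1.76, 1.72 and 2.35 FPKM (sh-Ptbp1-3d) and 5.76, 4.89 and 5.77 FPKM (sh-Ptbp1-7d). The 7 dpi libraries did not overlap with those of 3 dpi, while the 3 dpi libraries of both groups were mixed. It rose by 1.46 on the log2 scale from sh-Ptbp1-3d to sh-Ptbp1-7d (standard error 0.203, limma adjusted p = 0.000162), a 2.81-fold difference of means.

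TLR3 (chromosome 4, 186069152 to 186088069, plus strand) is the endosomal receptor for double-stranded RNA. It was at 2.14, 3.29 and 2.13 FPKM (sh-Luci-3d), 1.74, 2.04 and 2.14 FPKM (sh-Ptbp1-3d) and 13.2, 13.3 and 12.8 FPKM (sh-Ptbp1-7d). All 7 dpi libraries were above all of 3 dpi, and their SD was 0.248 FPKM around a mean of 13.1 FPKM. Its log2 fold change was 2.68 (standard error 0.164, limma adjusted p = 4.08e-07), a 6.65-fold difference of means. TICAM1, the adaptor that TLR3 signals through, stood at means of 10.4 FPKM (sh-Ptbp1-7d) and 10.1 FPKM (sh-Ptbp1-3d) and did not pass the test (log2 fold change 0.03, limma adjusted p = 0.847; -0.06 with median-ratio scaling).

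EIF2AK2 (chromosome 2, 37099210 to 37157065, minus strand) encodes PKR, the kinase that phosphorylates the translation factor eIF2 alpha when it binds double-stranded RNA. It was at 26.2, 32.3 and 20.2 FPKM (sh-Luci-3d), 21.6, 23.1 and 23.4 FPKM (sh-Ptbp1-3d) and 28.4, 25.9 and 23.8 FPKM (sh-Ptbp1-7d). The 7 dpi libraries lay just above those of sh-Ptbp1-3d and inside the range of sh-Luci-3d. It changed by 0.196 on the log2 scale from 3 dpi to 7 dpi of knockdown (standard error 0.145, 95% interval -0.125 to 0.52, limma adjusted p = 0.288). EIF2AK2 did not pass the test, and its printed start region holds an ISRE core, as those of IFIH1 and TLR3 do. DDX58, which was called higher, had a searched window without that core. A link between the core and the changes was not tested.

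CGAS (chromosome 6, 73413515 to 73452276, minus strand) encodes the enzyme that makes the messenger cGAMP on cytosolic DNA. It was at 0.0679, 0.0733 and 0.0145 FPKM (sh-Luci-3d), was listed at 0 in replicates 1 and 2 and at 0.0265 FPKM in replicate 3 of sh-Ptbp1-3d, and was at 0.0210, 0.0484 and 0.0840 FPKM (sh-Ptbp1-7d). All 9 values lay below the filter of 0.1 FPKM, and the gene was not tested. The protein that acts on the product of CGAS, STING1, was by contrast readily detected, at 21.0, 20.7 and 21.2 FPKM (sh-Ptbp1-7d) and 11.2, 12.7 and 12.4 FPKM (sh-Ptbp1-3d). Its log2 fold change was 0.79 (limma adjusted p = 0.000713), past the FDR and short of the fold threshold.

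MAVS (chromosome 20, 3846799 to 3876123, plus strand) is the mitochondrial adaptor on which DDX58 and IFIH1 both depend. It was at 13.8, 14.1 and 13.8 FPKM (sh-Luci-3d), 13.9, 13.3 and 11.7 FPKM (sh-Ptbp1-3d) and 7.74, 6.65 and 5.95 FPKM (sh-Ptbp1-7d). Every 7 dpi library was below every 3 dpi library, opposite in direction to the helicases. Relative to sh-Ptbp1-3d it changed by -0.93 on the log2 scale (standard error 0.109, limma adjusted p = 4.98e-05), past the FDR, and the means differed 1.91-fold. It passed both thresholds with median-ratio scaling (-1.01), with quantile normalization (-1.02) and without sh-Ptbp1-7d replicate 1 (-1.02).

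TBK1 (chromosome 12, 64451880 to 64502108, plus strand) is the kinase that activates IRF3 below MAVS, TICAM1 and STING1. It was at 14.9, 15.6 and 10.8 FPKM (sh-Luci-3d), 13.4, 13.9 and 12.5 FPKM (sh-Ptbp1-3d) and 17.7, 17.3 and 17.1 FPKM (sh-Ptbp1-7d). The 7 dpi libraries stood above all others by a small margin. Its log2 difference of 0.39 between 3 dpi and 7 dpi of knockdown (standard error 0.127, limma adjusted p = 0.0251) did not pass the FDR of 0.01. It passed when those groups were fitted alone (adjusted p = 0.00141) and without sh-Luci-3d replicate 3 (adjusted p = 0.000584), in a range over all alternatives that ended at 0.0916.

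ADAR (chromosome 1, 154582057 to 154628013, minus strand) edits adenosine to inosine in double-stranded RNA. It had the highest mean of the 9 genes in all groups, at 114.8, 129.3 and 109.0 FPKM (sh-Luci-3d), 107.0, 110.4 and 112.1 FPKM (sh-Ptbp1-3d) and 194.7, 188.6 and 159.2 FPKM (sh-Ptbp1-7d). The 7 dpi libraries did not overlap with those of 3 dpi. Its log2 fold change from sh-Ptbp1-3d to sh-Ptbp1-7d was 0.71 (standard error 0.094, limma adjusted p = 0.000114), past the FDR with a fold of 1.65 that was below the threshold. The table gives 1 value per gene, so the interferon-inducible and the constitutive transcript of ADAR cannot be told apart.

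**Figure D2:**
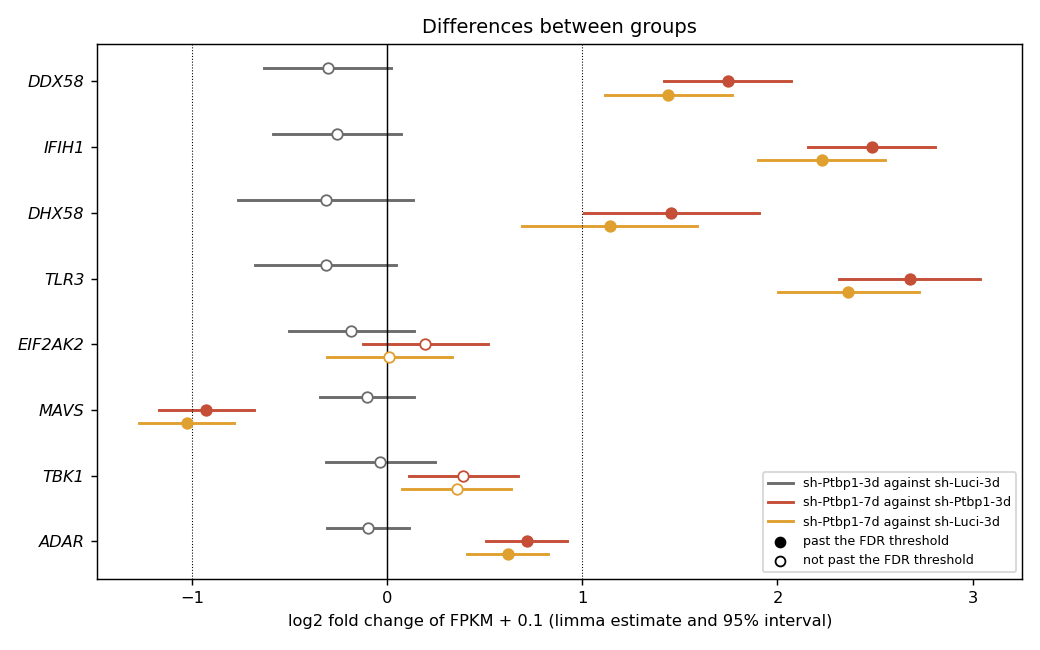
Log2 fold change of FPKM + 0.1 (horizontal axis) for the 8 genes tested, with points for limma's estimate, lines for its 95% interval and colours for the 3 comparisons. Filled points passed the FDR threshold, and dotted lines mark a fold of 2. DDX58, IFIH1, DHX58 and TLR3 lie right of the dotted line in both comparisons with sh-Ptbp1-7d, MAVS lies on the left, and all points comparing the 3 dpi groups are open.

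At 3 dpi no difference between PTBP1 knockdown and control was detectable in these genes. None of the 8 genes tested was called in sh-Ptbp1-3d relative to sh-Luci-3d, where 0.0129% of all genes (2 genes) were called and 0.0322% passed the FDR alone. At an unadjusted limma p under 0.05, 0 of 8 passed, against 7.24% of all genes. The study, at the same thresholds and with a test it does not name, reported many more genes between these groups. Few genes of any kind were called here, so the lack of calls does not show that these sensors were unchanged. The libraries of the groups overlapped for all 8, while 10.8% of all genes did not overlap. The estimates were all slightly below 0, from -0.32 for DHX58 (standard error 0.203, limma adjusted p = 0.782) to -0.04 for TBK1 (standard error 0.127, limma adjusted p = 0.969). The lowest unadjusted limma p was that of DDX58, at 0.0646, with an adjusted p of 0.717 and a 95% interval of -0.63 to 0.02 on the log2 scale. Within sh-Luci-3d, replicate 2 was the highest library for 8 of the 9 genes, and within sh-Ptbp1-3d replicate 3 for 7 of the 9. Without replicate 2 of sh-Luci-3d the log2 fold change was -0.11 for DDX58 in place of -0.305, -0.07 for IFIH1 in place of -0.26 and -0.11 for TLR3 in place of -0.315. Other libraries moved the values the other way. Without replicate 3 of sh-Luci-3d it was -0.45 for DDX58 (limma adjusted p = 0.0743) and -0.36 for EIF2AK2 in place of -0.18 (limma adjusted p = 0.0709), and 57 of all 15551 genes were called in place of 2. Without replicate 1 it was -0.545 for DHX58 in place of -0.32. None of these differences of single sensors passed the FDR.

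Against the control sh-RNA at 3 dpi, the 7 dpi knockdown libraries showed the same direction for each called gene, but the comparison shares its sh-Ptbp1-7d libraries with the one above and is no separate evidence. Of the 8 genes, 5 were called, 4 higher and MAVS lower, against 14.6% of all genes, 8.93% being higher and 5.68% lower. With the FDR alone 6 passed, against 35.6% of all genes. The libraries did not overlap for 7 of the 8, all but EIF2AK2, against 55.9% of all genes. The log2 fold changes were 1.44 for DDX58 (limma adjusted p = 1.74e-05), 2.23 for IFIH1 (adjusted p = 7.29e-07) and 2.36 for TLR3 (adjusted p = 1.04e-06). These 3 sensors were thus 2.66-fold, 4.61-fold and 5.20-fold higher by the ratio of means. DHX58 was higher by 1.14 on the log2 scale (standard error 0.203, limma adjusted p = 0.000839), and MAVS changed by -1.03 (standard error 0.109, limma adjusted p = 2.3e-05). Both lay near the fold threshold: DHX58 fell short of it with a pseudocount of 1 (0.91), with quantile normalization (0.98) and without sh-Luci-3d replicate 1 (0.91), and MAVS with a pseudocount of 1 (-0.94), as TPM (-0.955) and without sh-Ptbp1-7d replicate 3 (-0.94). ADAR passed the FDR alone (log2 fold change 0.62, limma adjusted p = 0.000312). TBK1 (0.36, adjusted p = 0.0378) and EIF2AK2 (0.01, adjusted p = 0.956) did not pass, and the estimate for EIF2AK2 turned to -0.09 with median-ratio scaling.

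The order of the levels differed between the groups. In sh-Luci-3d the means ran from ADAR at 117.7 FPKM through DDX58 at 64.3 FPKM, IFIH1 at 28.6 FPKM and EIF2AK2 at 26.2 FPKM to MAVS and TBK1 at 13.9 and 13.8 FPKM, TLR3 and DHX58 at 2.52 and 2.49 FPKM, and CGAS. In both 3 dpi groups the libraries of IFIH1 and EIF2AK2, of MAVS and TBK1, and of TLR3 and DHX58 overlapped, so the order within each of these pairs was not resolved. In sh-Ptbp1-7d ADAR at 180.8 ± 18.95 FPKM and DDX58 at 171.3 ± 9.99 FPKM (SD, n = 3) overlapped, IFIH1 followed at 131.9 ± 4.50 FPKM (SD, n = 3), and EIF2AK2, TBK1, TLR3, MAVS and DHX58 came next with no overlap between neighbours. MAVS thus moved from above TLR3 to below it. The FPKM of all 9 genes together was 237.4 ± 9.23 in sh-Ptbp1-3d and 552.9 ± 35.2 in sh-Ptbp1-7d (SD, n = 3), and the share of IFIH1 in that sum went from 9.94% to 23.9% while that of ADAR went from 46.3% to 32.7%.

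Ratios within a library do not depend on how the library was scaled, and they show how unequally the partners moved. IFIH1 stood at 1.58, 1.65 and 2.32 times the FPKM of MAVS in the sh-Ptbp1-3d libraries and at 17.3, 20.3 and 21.3 times in the sh-Ptbp1-7d libraries. DDX58 per IFIH1 was 2.15, 2.30 and 2.06 at 3 dpi of knockdown and 1.29, 1.34 and 1.27 at 7 dpi, so DDX58 and IFIH1 came closer to each other. ADAR per IFIH1 was 4.87, 5.06 and 4.13 in sh-Ptbp1-3d and 1.46, 1.39 and 1.26 in sh-Ptbp1-7d. TLR3 per TICAM1 went from a mean of 0.196 to 1.27, and IFIH1 per DHX58 from 12.2 to 24.3. None of these ratios overlapped between sh-Ptbp1-7d and either group of 3 dpi. Each such comparison gave an exact two-sided permutation p of 0.1, the smallest that 3 libraries against 3 allow, and 0.15 after Benjamini-Hochberg adjustment over 18 tests. Between the 3 dpi groups the ratios overlapped.

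**Figure D3:**
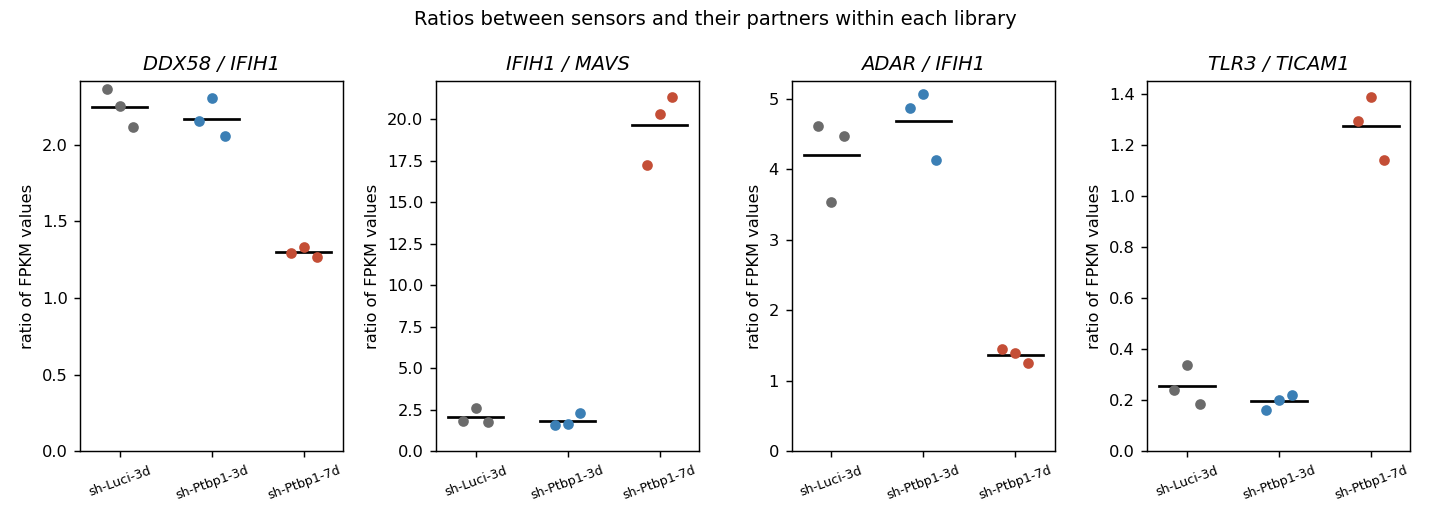
Ratios of FPKM values within each library (vertical axes, starting at 0), with points for the 3 libraries of a group and a line at their mean. IFIH1 per MAVS and TLR3 per TICAM1 were higher in all 3 sh-Ptbp1-7d libraries than in any library of 3 dpi, and DDX58 per IFIH1 and ADAR per IFIH1 were lower.

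The genes whose pattern over the 9 libraries lay nearest to each sensor were sought among 11340 genes averaging 1 FPKM or more, by the root mean square distance of log2 values centred on the sh-Luci-3d mean. For DDX58 these were DTX3L (distance 0.094) and TRIM5 (0.132), and for IFIH1 they were GBP3 (0.098) and IFIT3 (0.103). DHX58 lay nearest to OAS3 (0.123) and HERC6 (0.179). TLR3 lay nearest to another gene of the set, IFIH1 (0.108), and then to GBP3 (0.146). The genes nearest to the others were GCNT1 and TBC1D8B for EIF2AK2 (0.072 and 0.077), CHMP3 and MLEC for MAVS (0.063 and 0.072), EYA3 and WASL for TBK1 (0.057 and 0.06), and SMCR8 and PDIK1L for ADAR (0.052 and 0.06). This is a description over libraries that share their groups, with no test.

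Around the sensors, 75 further genes of nucleic acid sensing were examined in 6 roles, of which 65 passed the filter on low values. From 3 dpi to 7 dpi of knockdown 13 of the 65 were called, all of them higher, against 14.2% of all genes. IFNB1, CXCL10 and ZBP1, among the 13, passed the filter only through sh-Ptbp1-7d, so their calls are not independent of it. With the FDR alone 28 were higher and 5 lower, against 20.3% and 15.5% of all genes. The median log2 fold change was 0.29. At 3 dpi, 0 were called by limma between knockdown and control, and 6 passed at an unadjusted p under 0.05, against 7.24% of all genes. Relative to the control sh-RNA, 13 were called at 7 dpi, against 14.6% of all genes. With a pseudocount of 1 this count was 8, and that over all genes 1269 of 15551.

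Of the other sensors and adaptors 4 of 11 tested were called, all higher, against 14.2% of all genes, 8.31% being higher. IFI16, a nuclear and cytosolic DNA sensor, was at 67.2, 72.3 and 80.4 FPKM (sh-Ptbp1-3d) and 179.6, 194.5 and 207.1 FPKM (sh-Ptbp1-7d) (log2 fold change 1.40, standard error 0.146, limma adjusted p = 1.93e-05). ZNFX1, a helicase that senses RNA at mitochondria, went from a mean of 20.6 to 76.4 FPKM (log2 fold change 1.89, limma adjusted p = 1.85e-06). ZBP1, a sensor of Z-form nucleic acid that drives cell death, was low, at 0.0449, 0.0206 and 0 FPKM at 3 dpi of knockdown and 0.589, 1.17 and 0.823 FPKM at 7 dpi (limma adjusted p = 3.09e-05). ZBP1 passed the filter on low values only through sh-Ptbp1-7d, so its call as higher there is not independent of the filter. Its log2 fold change of 2.95 fell as low as 0.853 over the alternatives, below the fold threshold. The fourth was DDX60, with means of 7.85 and 19.9 FPKM, named after its values were seen. Thus sensors outside the 9 genes were also among those called higher, and they include the DNA sensor IFI16. TLR7, TLR8, TLR9 and AIM2, listed in the same role, were below the filter and were not tested.

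Of the genes that regulate the RNA helicases 0 of 7 tested were called by limma, against 14.2% of all genes. Of those that signal below the adaptors 0 of 19 were called, against the same 14.2%. With the FDR alone 3 of the 7 and 7 of the 19 passed, against 35.8% of all genes. IRF3, the transcription factor that TBK1 activates, was at 48.2, 44.5 and 41.5 FPKM (sh-Ptbp1-3d) and 47.1, 50.8 and 47.6 FPKM (sh-Ptbp1-7d) and did not pass (log2 fold change 0.12, limma adjusted p = 0.52). IRF7, its interferon-inducible relative, was at means of 0.605 and 0.808 FPKM, with 7 dpi libraries from 0.255 to 1.31 FPKM (limma adjusted p = 0.684). IKBKE, the kinase most like TBK1, fell from 8.14, 6.88 and 6.80 FPKM to 4.39, 3.78 and 3.38 FPKM (log2 fold change -0.90, limma adjusted p = 0.000219). The ubiquitin ligase TRAF3, which binds MAVS, was at means of 5.43 and 4.46 FPKM (log2 fold change -0.28, limma adjusted p = 0.0652) and passed with quantile normalization (adjusted p = 0.00557).

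Among 11 genes that remove nucleic acids 2 were called, against 14.2% of all genes. ISG20, an exonuclease of single-stranded RNA, was at 1.09, 1.47 and 1.31 FPKM (sh-Ptbp1-3d) and 17.3, 18.1 and 14.7 FPKM (sh-Ptbp1-7d) (log2 fold change 3.60, limma adjusted p = 5.03e-06). SAMHD1, which depletes nucleotides for DNA synthesis, rose from a mean of 57.4 to 117.5 FPKM (log2 fold change 1.04, limma adjusted p = 2.55e-05). It lay at the fold threshold, with log2 fold changes of 0.949 to 1.139 over the alternatives, and was not called against sh-Luci-3d. Of 11 genes in the arm of EIF2AK2, which holds the other eIF2 alpha kinases and their targets, 2 were called, against the same 14.2%. These were EIF2AK3, the kinase that responds to stress of the endoplasmic reticulum, at means of 3.40 and 9.04 FPKM (log2 fold change 1.39, limma adjusted p = 4.08e-05), and DDIT3, a transcription factor induced below ATF4, at means of 23.5 and 61.2 FPKM (1.38, adjusted p = 2.78e-06). EIF2AK3 was thus called higher at 7 dpi, where EIF2AK2 did not pass the test.

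Of 11 output genes of the pathway 6 passed the filter and 5 were called, all higher, against 14.2% of all genes, 8.31% being higher. The other gene tested, IFNE, named after its values were seen, was not called in any comparison. Its means were 1.351 FPKM (sh-Luci-3d), 1.025 FPKM (sh-Ptbp1-3d) and 0.977 FPKM (sh-Ptbp1-7d). IFNL1, IFNL2, IFNL3, IFNA1 and IFNA2 were below the filter and were not tested. IFNB1 and CXCL10 had means below 0.1 FPKM in both 3 dpi groups and passed the filter only through sh-Ptbp1-7d. Their calls as higher there are thus not independent of the filter. IFNB1, which encodes interferon beta, was listed at 0 in all sh-Luci-3d libraries, at 0, 0.116 and 0 FPKM (sh-Ptbp1-3d) and at 0.567, 0.294 and 0.762 FPKM (sh-Ptbp1-7d). Its log2 fold change against sh-Ptbp1-3d was 2.24 (limma adjusted p = 0.00138), and 4.465 with a pseudocount of 0.01, where the adjusted p was 0.0104, and 0.56 with a pseudocount of 1, and the call was lost with either. The chemokine CCL5 was at 0.290, 0.359 and 0.155 FPKM (sh-Ptbp1-3d) and 5.64, 7.42 and 5.45 FPKM (sh-Ptbp1-7d) (log2 fold change 4.12, standard error 0.249, limma adjusted p = 3.83e-07). The chemokine CXCL10 was listed at 0 in replicates 1 and 2 of sh-Ptbp1-3d and reached 0.558, 0.627 and 0.624 FPKM at 7 dpi (limma adjusted p = 0.000162). Its log2 fold change of 2.54 fell as low as 0.646 over the alternatives, below the fold threshold. ISG15 and IFIT1, interferon-induced genes named after their values were seen, went from means of 605.2 and 114.3 FPKM to 2546 and 442.3 FPKM. At 7 dpi IFNB1 and CXCL10 were thus detected at low means of 0.541 and 0.603 FPKM, and CCL5 at a higher mean of 6.17 FPKM. ISG15 and IFIT1 had high means in every group, the lowest being 114.3 FPKM for IFIT1 at 3 dpi of knockdown. That does not extend to all interferon-induced genes. The interferon-inducible IRF7 had means of 0.605 FPKM at 3 dpi and 0.808 FPKM at 7 dpi of knockdown.

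**Figure D4:**
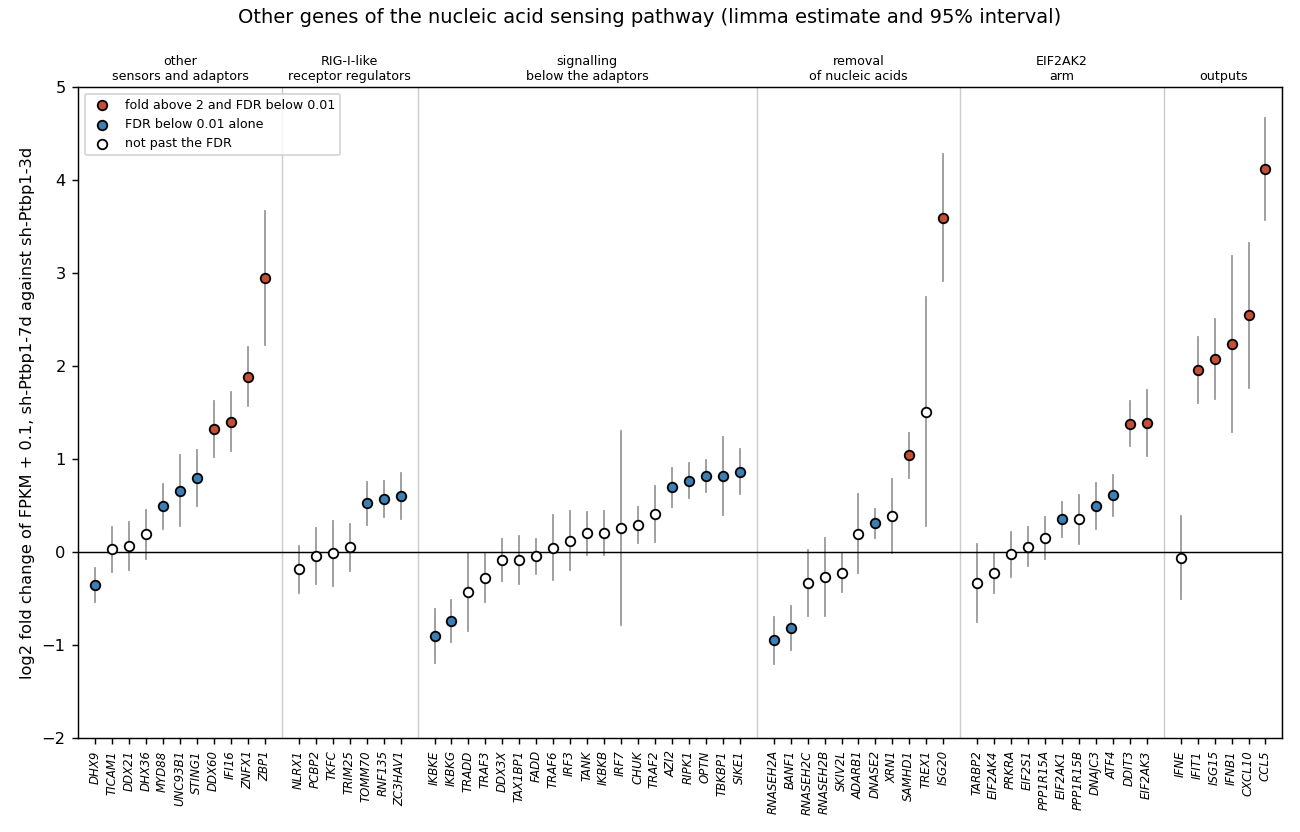
Log2 fold change of FPKM + 0.1 in sh-Ptbp1-7d relative to sh-Ptbp1-3d (vertical axis) for the 65 further genes tested, grouped by role, with points for limma's estimate and lines for its 95% interval. Red points passed both thresholds, blue points the FDR alone and white points neither. The called genes, 13 in all, are higher, with 5 among the outputs and 4 among the other sensors and adaptors. Of all genes 14.2% were called. IFNB1, CXCL10 and ZBP1, among the 13, passed the filter on low values only through sh-Ptbp1-7d, so their calls are not independent of it.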

How the data were processed

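Total RNA of U251 cells was extracted with TRIzol and sequenced on Illumina HiSeq. The authors filtered the reads, compared them to a reference sequence and deposited FPKM values per gene and library. The submitters' processing notes name HISAT2 and GRCh38, and the counting program and annotation are not given in the sources used here. The authors also deposited coordinates of 2363 loci assembled by StringTie, which were used to check the build: 49.6% of 43315 assembled exons equal a GENCODE v29 exon at both ends. Positions are from GENCODE v29 and promoter windows from RefSeq. Depth is unknown, so count tests were not used.

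All 9 libraries, grouped by their labels, entered 1 model of the 3 groups in limma 3.58.1 (R 4.3.3) on log2(FPKM + 0.1), with genes under a mean of 0.1 FPKM removed and eBayes run with its trend option. Thresholds were those of the study, and both comparisons with sh-Ptbp1-7d took the same thresholds. Ratios were tested with the exact permutation test, two-sided. Plots were made by matplotlib 3.10.9 (Python 3.11.15).

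The named genes were the 9 sensors and adaptors, PTBP1, 9 listed genes of the pathway, and up to 3 called genes of each of the 6 roles with the largest change between the sh-Ptbp1 groups, with the 2 genes nearest in pattern to each sensor. CGAS, below the filter, is left out of the latter. The genes, lists and tests were chosen with earlier results of these data known. Alternatives were other pseudocounts and filters, TPM, median-ratio and quantile scaling, no assembled loci or mitochondrial genes, the compared groups alone, no trend, blocking on the replicate number, and each library left out in turn. Same-numbered libraries did not deviate together (correlations of -0.032 to 0.051), so the numbers were not taken to pair libraries.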

Additional observations from a re-analysis of the deposited data

How the results depend on the processing

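Each comparison was recomputed under 20 alternatives. The count of called sensors and adaptors was 0 under each of them between the 3 dpi groups, and 4 or 5 between the sh-Ptbp1 groups. Between sh-Ptbp1-7d and the control it was 5, 4 with TPM and with quantile normalization, and 3 with a pseudocount of 1, where the count of called pathway genes was 8 in place of 13, since a larger pseudocount shrinks the fold of low genes. With each library left out in turn these counts ranged from 4 to 5 and from 12 to 15. With the replicate number as a block the counts of called sensors and adaptors were 0, 4 and 5, as without it. Over all genes the block gave 0, 2140 and 2217 calls, against 2, 2211 and 2271.

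Estimates near 0 turned their sign, none of them past a threshold, and the cause was not tested. TBK1 between the 3 dpi groups became 0.031 and 0.063 without sh-Luci-3d replicates 1 and 2, and 0.008 without sh-Ptbp1-3d replicate 3, in a range over left-out libraries of -0.2 to 0.063. EIF2AK2 between sh-Ptbp1-7d and control became -0.088 with median-ratio scaling, -0.05 with quantile normalization, -0.163 without sh-Luci-3d replicate 3 and -0.053 without sh-Ptbp1-7d replicate 1, and reached 0.174 without sh-Luci-3d replicate 2. Between the sh-Ptbp1 groups, TICAM1 became -0.057 and -0.066 with median-ratio scaling and quantile normalization, -0.004 without sh-Ptbp1-3d replicate 3 and -0.033 without sh-Ptbp1-7d replicate 3, with a highest value of 0.084 over left-out libraries, and IRF7 became -0.039 without sh-Ptbp1-3d replicate 3 and -0.171 without sh-Ptbp1-7d replicate 1, with a highest value of 0.824. TPM moved the median log2 fold change of all genes to 0.195 between the sh-Ptbp1 groups and 0.181 between sh-Ptbp1-7d and control, from 0.092 and 0.099. The unknown depth and 3 libraries per group limit what could be seen for CGAS, IFNB1 and CXCL10.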
